A study of Mus musculus with 9 samples.

Results

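The 5 casein genes of the mouse, Csn1s1, Csn2, Csn1s2a, Csn1s2b and Csn3, were followed through the reproductive cycle of the mammary gland. They were chosen by name, as every probe set of the array whose annotated gene symbol, or an older synonym of it, is a casein gene. The rule found 5 probe sets, 1 for each gene, among 12422 that are not controls and the 8251 genes that these name. A probe set is a group of short oligonucleotides for 1 transcript, and its signal is a brightness on a linear scale. All 5 passed the filter on dim probe sets, a mean signal above 20 in at least 1 stage, and 9783 probe sets in all did.

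The RNA came from the whole number 4 (inguinal) mammary gland of untreated wild type C57BL/6J females at 4 stages. These were puberty (virgins, 6 weeks of age, n = 3), day 14 of pregnancy (n = 2), day 10 of lactation (n = 2) and day 4 of involution after the pups were weaned (n = 2). Each array held the RNA of a different female, on the Affymetrix MG-U74Av2 design. A whole gland contains the fat pad, vessels, leukocytes and lymph node along with the epithelium, and near the body wall it can carry muscle. In such bulk RNA, fewer cells of a type and less RNA per cell cannot be told apart.

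Caseins are the main proteins of milk and are made by the secretory luminal cells of the alveoli. Those encoded by Csn1s1 (alpha-S1-casein), Csn2 (beta-casein), Csn1s2a and Csn1s2b (alpha-S2-like caseins) are phosphorylated in the Golgi and carry calcium phosphate. Csn3 encodes kappa-casein, a glycosylated casein that coats the micelle and keeps it in suspension. Prolactin, acting through JAK2 and the transcription factor STAT5, and glucocorticoid are known to drive transcription of casein genes, and milk stasis after weaning ends it.

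The genes lie together on chromosome 5, in the order Csn1s1, Csn2, Csn1s2a, Csn1s2b and Csn3 in the RefSeq gene table of GRCm38.p6. That stretch holds 12 annotated genes, among them 3 pseudogenes, the enamel-matrix gene Odam and Prr27, and only the 5 caseins of the 12 had a probe set named on the array. Promoter sequence from RefSeq (GRCm38.p6, 250 bases before to 50 after the start of the gene) was held for 3 of the 5 genes: Csn1s1 at chr5:87665958-87666257 on the plus strand, Csn2 at chr5:87699376-87699675 on the minus strand and Csn1s2a at chr5:87774200-87774499 on the plus strand. They are shown because STAT5 is the best known regulator of these genes. Capitals mark the letters TTCNNNGAA, to which STAT factors are known to bind, and the same half-sites with 1 more base between them.
Csn1s1: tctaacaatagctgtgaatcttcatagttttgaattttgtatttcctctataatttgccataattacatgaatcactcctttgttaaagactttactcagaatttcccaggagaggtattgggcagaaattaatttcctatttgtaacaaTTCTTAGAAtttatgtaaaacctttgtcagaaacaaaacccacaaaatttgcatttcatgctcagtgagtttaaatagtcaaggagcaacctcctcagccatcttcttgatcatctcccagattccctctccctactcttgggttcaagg
Csn2: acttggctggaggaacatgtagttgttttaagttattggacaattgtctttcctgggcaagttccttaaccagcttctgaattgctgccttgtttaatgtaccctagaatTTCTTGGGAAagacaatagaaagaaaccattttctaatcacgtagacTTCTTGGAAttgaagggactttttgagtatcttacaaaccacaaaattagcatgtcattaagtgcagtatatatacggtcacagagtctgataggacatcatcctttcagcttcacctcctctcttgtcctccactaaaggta
Csn1s2a: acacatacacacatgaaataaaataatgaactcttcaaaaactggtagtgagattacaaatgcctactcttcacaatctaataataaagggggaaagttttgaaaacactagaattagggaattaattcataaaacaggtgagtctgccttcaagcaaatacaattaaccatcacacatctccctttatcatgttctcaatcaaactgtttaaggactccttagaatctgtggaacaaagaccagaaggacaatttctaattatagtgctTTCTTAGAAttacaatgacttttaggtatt
Counted with the first transcribed base as 1, TTCNNNGAA stood at positions -100 to -92 of Csn1s1, at -93 to -85 of Csn2 and at 21 to 29 of Csn1s2a. The longer form stood at -140 to -131 of Csn2. On both strands, 8.29% of 32817 RefSeq promoters of the same length held TTCNNNGAA and 6.94% held the form with the longer spacer. The octamer ATTTGCAT, a motif of the POU factor Oct-1, was found at -54 to -47 of Csn1s1 and in 1.74% of the promoters, and no motif overlapped another. These matches are of letters alone, and binding was not measured.

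Arrays of the same stage correlated at r = 0.947 to 0.975 on the log2 scale, and arrays of different stages at 0.724 to 0.935. Median deposited signals were 48.1 to 53.8, and arrays were brought to 1 median before values were compared. The epithelium was checked with 7 luminal markers, which were all tested, with a summed signal of 1888.6 to 3282.0 at puberty, 4743.3 to 5367.6 at pregnancy, 1932.9 to 2274.2 at lactation and 2916.8 to 4245.2 at involution. The basal keratins Krt5 and Krt14 averaged 20.4 or less in every stage, which is at or near the floor of 20, below which a signal was set to 20. The other basal and myoepithelial genes with a probe set were brighter. Their stage means were 495 to 1801 for Acta2, 200 to 810 for Myh11 and 41.7 to 120 for Trp63.

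Csn1s1 had a scaled signal of 16.8, 656.9 and 351.6 at puberty, 9962.8 and 9064.3 at pregnancy, 31027.4 and 23559.3 at lactation, and 8099.7 and 9086.9 at involution. Both lactation arrays stood above all others, the pregnancy and involution arrays overlapped, and the puberty arrays were lowest. Stage means were 342 ± 320, 9514 ± 635, 27293 ± 5281 and 8593 ± 698 (SD, n = 3, 2, 2 and 2, in the order of the stages). Pregnancy thus stood at 34.9% and involution at 31.5% of the lactation mean.

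Csn2 had 4.9, 238.4 and 171.0 at puberty, 5331.4 and 4973.0 at pregnancy, 17605.7 and 12441.2 at lactation, and 3692.6 and 4016.0 at involution. The order was the same as for Csn1s1, but both involution arrays lay below both pregnancy arrays. The means were 138 ± 120, 5152 ± 253, 15023 ± 3652 and 3854 ± 229, with pregnancy at 34.3% and involution at 25.7% of lactation.

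Csn1s2a had 3.4, 183.2 and 151.8 at puberty, 6958.8 and 5858.2 at pregnancy, 23831.9 and 19163.1 at lactation, and 2273.2 and 965.7 at involution. Here involution formed a level of its own, well under pregnancy and above puberty with no overlap. The means were 113 ± 96.0, 6408 ± 778, 21498 ± 3301 and 1619 ± 925. Pregnancy stood at 29.8% and involution at 7.53% of lactation.

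Csn1s2b had 4.9, 62.4 and 48.9 at puberty, 19.3 and 19.2 at pregnancy, 18845.0 and 12377.5 at lactation, and 53.5 and 357.3 at involution. It was bright on the lactation arrays only. Both pregnancy arrays were at the floor, while on the same arrays the other 4 casein genes were at 27.7% to 34.9% of their lactation means. The means were 38.7 ± 30.1, 19.3 ± 0.0399, 15611 ± 4573 and 205 ± 215, so pregnancy stood at 0.123% and involution at 1.32% of lactation.

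Csn3 had 362.0, 335.5 and 283.2 at puberty, 6667.2 and 5771.9 at pregnancy, 25137.2 and 19813.2 at lactation, and 5103.1 and 7028.6 at involution. It was the only casein gene above the floor on all 9 arrays, and its puberty arrays lay close together. The means were 327 ± 40.1, 6220 ± 633, 22475 ± 3765 and 6066 ± 1362. Pregnancy stood at 27.7% and involution at 27.0% of lactation, and the arrays of these 2 stages overlapped.

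**Figure D1:**
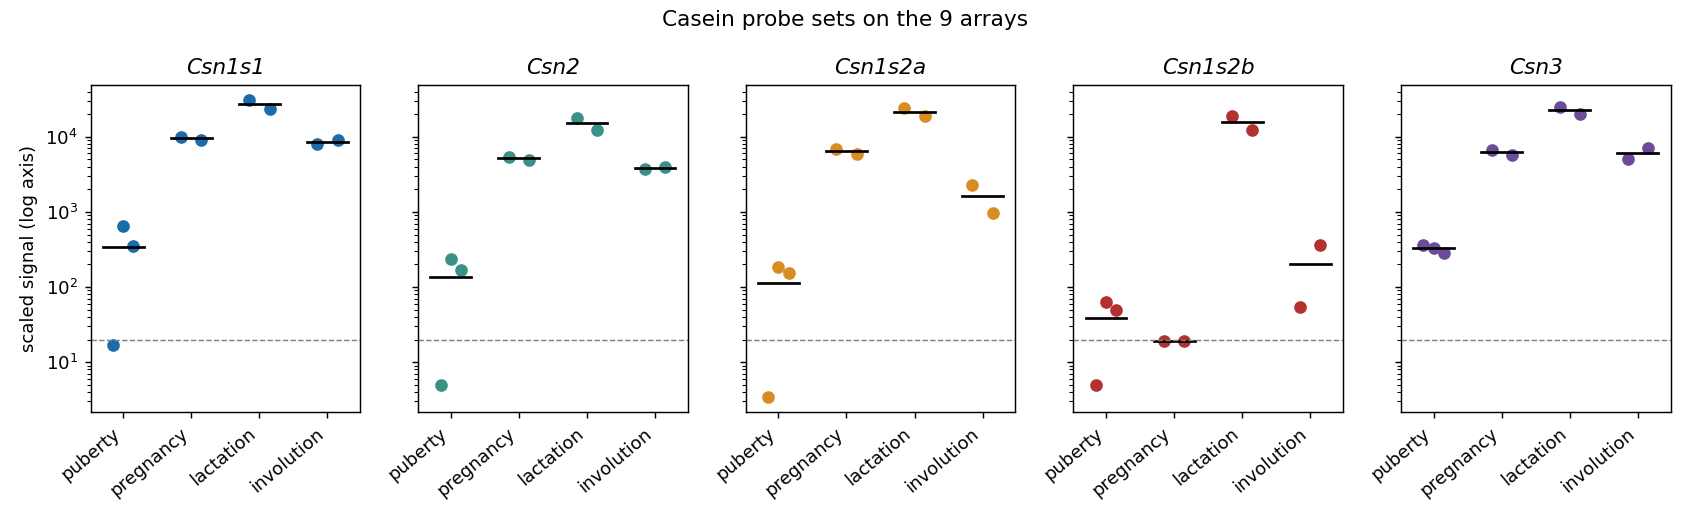
Scaled signal of the 5 casein genes on a logarithmic axis, by stage (puberty n = 3, pregnancy, lactation and involution n = 2 each); each point is 1 array, a bar marks the mean of a stage, and a dashed line is drawn at the floor of 20. Csn1s2b stands at 357.3 or less on every array other than those of lactation, and the lowest puberty points of 4 genes belong to replicate 1.

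The lowest puberty value of Csn1s1, Csn2, Csn1s2a and Csn1s2b came from the same animal, puberty replicate 1. On that array the 4 genes were under the floor, while Csn3 was at 362.0, its highest puberty value. The luminal markers were not low there. Their summed signal was 3282.0 on replicate 1, against 2678.1 and 1888.6 on replicates 2 and 3. Wap, which encodes whey acidic protein, had 4.1 on replicate 1 and 695.9 and 435.5 on the others. Csn1s1, Csn2, Csn1s2a and Wap were the only 4 probe sets at the floor on replicate 1 with 100 or more on both other puberty arrays. Values without this array are given where it moved a call or a value.

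Across the 4 stages, limma's moderated F test called 5 of 5 casein genes, where it called 51.6% of all probe sets tested. The adjusted p values were 0.00316 for Csn1s1, 0.000669 for Csn2, 0.000401 for Csn1s2a, 0.000117 for Csn1s2b and 3.27e-06 for Csn3. They were, without puberty replicate 1, 9.08e-05, 3.74e-05, 9.08e-05, 0.000332 and 3.74e-05 in the same order. The call of Csn1s1 was lost without lactation replicate 1 (adjusted p = 0.0529).

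By day 14 of pregnancy, 4 of the 5 genes had risen over puberty, and 6.2% of all tested probe sets were higher and 5.22% lower in this comparison. The log2 rise was 5.83 (standard error, SE, 1.19; adjusted p = 0.0154) for Csn1s1 and 5.78 (SE 0.868; adjusted p = 0.00485) for Csn2. It was 6.28 (SE 0.837; adjusted p = 0.00291) for Csn1s2a and 4.25 (SE 0.196; adjusted p = 1.97e-05) for Csn3. As folds on the floored scale these were 57.1, 55.1, 77.6 and 19.1, with the pregnancy arrays above every puberty array. Csn1s2b overlapped between the stages (log2 -0.98, SE 0.736, adjusted p = 0.487). The median over the 5 genes was 5.78, beside 0 over all tested probe sets. Without puberty replicate 1, the folds of Csn1s1, Csn2 and Csn1s2a were 19.8, 25.5 and 38.3, and that of Csn3 was 20.1. Without puberty replicate 2 the log2 rise was 6.82 for Csn1s1 and 6.46 for Csn2. The count of 4 fell to 2 without pregnancy replicate 1 and to 1, Csn3, without pregnancy replicate 2.

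At day 10 of lactation the test called 2 of the 5 genes higher than at pregnancy. Of all tested probe sets, 21.6% were higher and 19.7% lower. Csn1s2b had 18845.0 and 12377.5 at lactation, against 19.3 and 19.2 at pregnancy, and was at least 764-fold higher relative to the floor (log2 9.58, SE 0.806, adjusted p = 7.58e-05). Csn3 was 3.60-fold higher (log2 1.85, SE 0.214, adjusted p = 0.000339). Both calls held under all 21 alternative settings, with an adjusted p of at most 0.00561 for Csn1s2b and 0.0146 for Csn3. Under quantile normalization the log2 change was 0.67 for Csn3 and 8.75 for Csn1s2b. Csn1s1 stood 2.85-fold (adjusted p = 0.384), Csn2 2.87-fold (adjusted p = 0.230) and Csn1s2a 3.35-fold (adjusted p = 0.163) above pregnancy and did not pass. Their standard errors of 1.31, 0.951 and 0.916 include the spread of the puberty arrays, since all stages share 1 estimate. Without puberty replicate 1 the changes were the same and all 5 genes passed, with adjusted p values of 0.00731 for Csn1s1, 0.00219 for Csn2 and 0.00851 for Csn1s2a. The median of the 5 changes was 1.74, beside 0.07 over all tested probe sets.

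On day 4 after weaning the estimated falls from lactation ranged from 3.15-fold to 110.4-fold among the genes. No test compared the falls of the genes with each other at this step alone. At involution 3 of the 5 genes passed the test as lower than at lactation. Of all tested probe sets, 23% were lower and 22.1% higher. Csn1s2b was 110.4-fold lower (log2 -6.79, SE 0.806, adjusted p = 0.000284), Csn1s2a 14.4-fold lower (log2 -3.85, SE 0.916, adjusted p = 0.00921) and Csn3 3.73-fold lower (log2 -1.90, SE 0.214, adjusted p = 0.000220). Csn1s1 stood 3.15-fold (log2 -1.66, adjusted p = 0.330) and Csn2 3.84-fold (log2 -1.94, adjusted p = 0.130) below lactation. The calls of Csn1s2b and Csn3 held under all 21 alternatives and that of Csn1s2a under 16, with a highest adjusted p of 0.105 without lactation replicate 1. The log2 change of Csn1s2b was -5.42 without involution replicate 1 and -8.16 without involution replicate 2, and that of Csn1s2a -4.47 and -3.23. Under quantile normalization it was -0.80 for Csn3, -2.83 for Csn1s2a and -6.02 for Csn1s2b. Without puberty replicate 1 all 5 passed, with Csn1s1 at 0.00427 and Csn2 at 0.000622. The median of the members was -1.94, beside -0.03 over all tested probe sets.

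Casein signal had not returned to the level of puberty on day 4 of involution. Against puberty, 4 of 5 genes were still higher, with 4.39% of all tested probe sets higher. Csn1s1 was 51.5-fold (adjusted p = 0.0244), Csn2 41.2-fold (adjusted p = 0.00799), Csn1s2a 18.0-fold (adjusted p = 0.0204) and Csn3 18.4-fold higher (adjusted p = 3.31e-05). Csn1s2b, at 53.5 and 357.3, overlapped the puberty arrays (3.51-fold, adjusted p = 0.189). Without puberty replicate 1 the folds were 17.9, 19.1, 8.89 and 19.4 for the 4 called genes, and without puberty replicate 2 the log2 change was 6.67 for Csn1s1 and 6.04 for Csn2. For Csn1s2a the log2 change of 4.17 was 3.56 without involution replicate 1 and 4.79 without involution replicate 2. The count of 4 fell to 1 or 2 when any array of pregnancy, lactation or involution was left out.

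Against pregnancy, limma called 0 of 5 at involution, with 4.03% of all tested probe sets higher and 3.1% lower. At an unadjusted p under 0.05 it had 2, Csn1s2a and Csn1s2b, and a plain pooled t per probe set gave 0 adjusted and 1 unadjusted. Csn1s2a had 2273.2 and 965.7 at involution, against 6958.8 and 5858.2 at pregnancy (log2 -2.11, SE 0.916, adjusted p = 0.220, and 0.0220 without puberty replicate 1). Csn1s2b was at least 6.92-fold higher relative to the floor (adjusted p = 0.0744). The 2 genes thus stood on opposite sides of their pregnancy arrays without overlap. Csn1s1 (log2 -0.15, SE 1.31, adjusted p = 1) and Csn3 (log2 -0.05, SE 0.214, adjusted p = 0.983) overlapped with pregnancy, and Csn2 had a log2 change of -0.42 (adjusted p = 0.897).

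**Figure D2:**
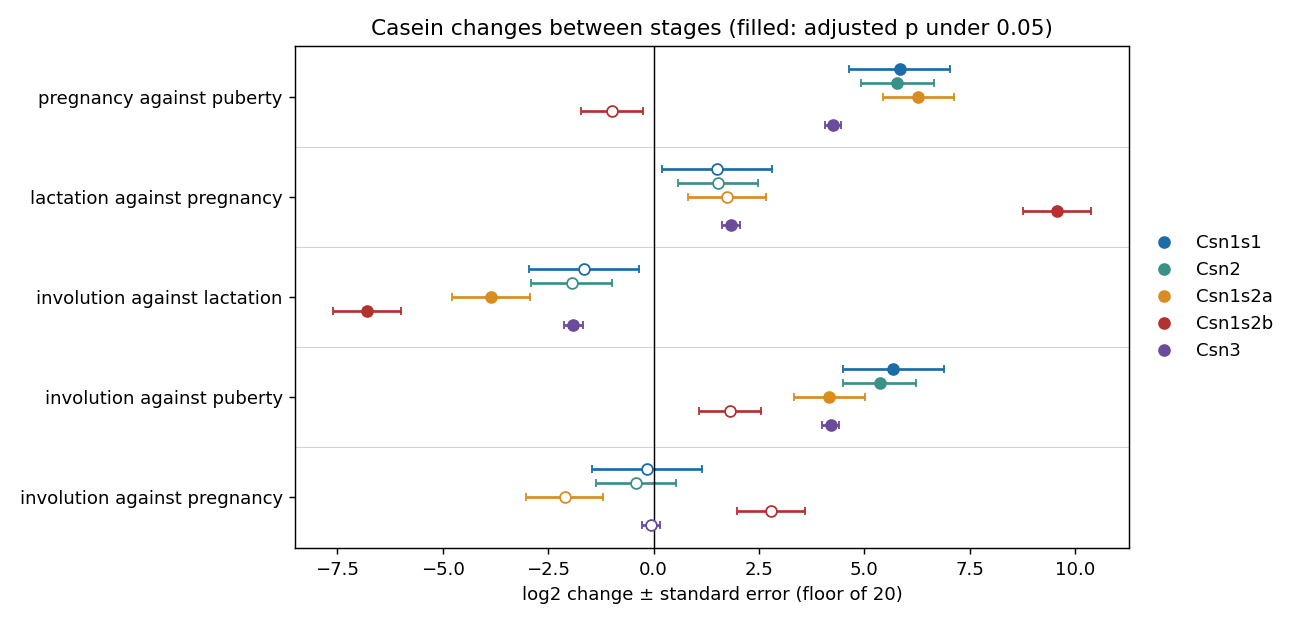
Log2 change of each casein gene in 5 stage comparisons, with the first-named stage over the second, on the scale with a floor of 20; bars are 1 standard error, filled points passed an adjusted p of 0.05 and hollow points did not. At lactation against pregnancy Csn1s2b stands at 9.58, while the other 4 genes lie between 1.51 and 1.85.

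Whether 2 casein genes changed by unequal amounts was tested on their log2 difference within each array. Scaling an array by 1 factor moves this difference only where a gene is at the floor. Quantile normalization can move it elsewhere too. Csn1s2b was at the floor on both pregnancy arrays and 4 genes were on puberty replicate 1. A difference there is a bound where 1 gene of the pair was at the floor. Where both were, as for Csn2 with Csn1s2a on puberty replicate 1, the floor sets the difference to 0. The stage labels of the 9 arrays were permuted exactly over 7560 assignments (smallest p 0.000794) for each of the 10 pairs, with adjustment over the 10. The difference varied with stage for 4 pairs, and 3 of the 4 involved Csn1s2b: with Csn3 (adjusted p = 0.0119), with Csn2 (adjusted p = 0.0212) and with Csn1s1 (adjusted p = 0.0258). The fourth was Csn2 with Csn1s2a (adjusted p = 0.0119), whose difference was 1.91 log2 units larger at involution than at lactation. Csn1s2a with Csn1s2b missed the threshold (adjusted p = 0.0619).

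Csn1s1 and Csn2, which lie next to each other, were among the pairs with an even ratio. Their log2 difference varied by 0.32 between the 4 stage means (exact permutation p = 0.889, adjusted p = 0.927), where both genes were at the floor on puberty replicate 1. Without that array the range was 0.38 for Csn1s1 with Csn2, 0.36 for Csn1s1 with Csn3 and 0.37 for Csn2 with Csn3, and at least 1.91 for each other pair. Over the 9 arrays their log2 signals correlated at r = 0.994. Csn1s2b had r = 0.564 to 0.644 with the other 4, and the remaining pairs 0.908 to 0.972. The pairs among Csn1s1, Csn2 and Csn3 had r = 0.996 to 0.998 when puberty replicate 1 was left out, Csn1s2a had 0.939 to 0.954 with these 3, and Csn1s2b had 0.554 to 0.599 with the other 4. These correlations describe arrays that share their stages, and carry no test.

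Relative to Csn3, and set to 0 at the lactation mean, Csn1s2a stood at -1.10 and -2.80 on the involution arrays, against -0.01 and 0.01 on the lactation arrays. On the pregnancy arrays it was at 0.12 and 0.08. Over all 4 stages the exact permutation test of this pair had an adjusted p of 0.259, and 0.019 without puberty replicate 1. On puberty replicates 2 and 3 it was at -0.81 and -0.84, and at -4.12 or lower on replicate 1, where it was at the floor. Csn1s2b stood at -7.83 or lower and -7.63 or lower on the pregnancy arrays, where it was at the floor, and at -6.03 and -3.75 on the involution arrays. Without puberty replicate 1 the number of pairs called was 7, and it was 2 without puberty replicate 2 or 3. No pair was called when an array of pregnancy or lactation was left out.

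**Figure D3:**
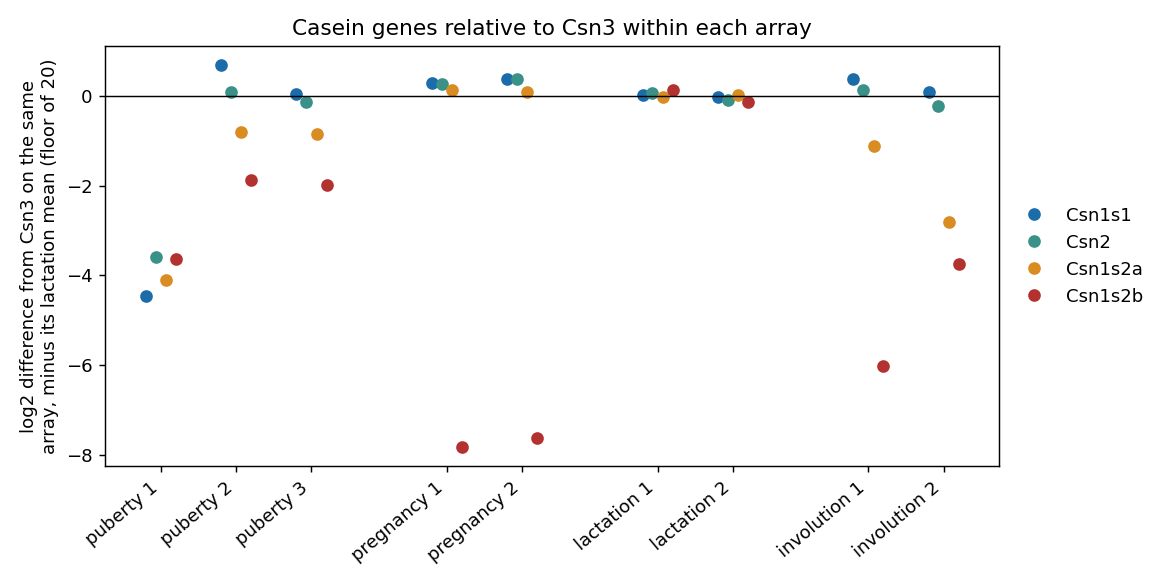
Log2 difference of 4 casein genes from Csn3 on the same array (floor of 20), minus its mean on the lactation arrays; each point is 1 gene on 1 array, shifted sideways by gene, and points of a gene at the floor (Csn1s2b at pregnancy, all 4 genes on puberty 1) are upper limits. On the involution arrays Csn1s2a stands at -1.10 and -2.80 and Csn1s2b at -6.03 and -3.75, while Csn1s1 and Csn2 stay between -0.21 and 0.39.

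Among 9 other milk proteins measured of 14 listed, 6 rose at pregnancy over puberty, 9 rose at lactation over pregnancy, and 8 fell at involution below lactation, beside 6.2%, 21.6% and 23% of all tested probe sets. Lalba, the alpha-lactalbumin of lactose synthase, had 22882.5 and 18354.8 at lactation, against 113.4 and 78.4 at pregnancy (log2 7.76). Like Csn1s2b it was bright at lactation alone, at 144.7 and 307.0 on the involution arrays. Btn1a1, a butyrophilin of the milk fat globule membrane, averaged 7208 at lactation, against 725 at pregnancy. At involution 7 of the 9 were still higher than at puberty, beside 4.39% of all tested probe sets. Against pregnancy 3 were higher and 1 lower, beside 4.03% and 3.1% of all. The median changes of the list in the first 3 steps were 1.78, 3.45 and -3.04.

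Genes that modify caseins or supply their calcium and phosphate were measured for 10 of 16 listed. Of these, 3 rose at pregnancy, 8 at lactation over pregnancy, and 8 fell at involution below lactation, beside the same 6.2%, 21.6% and 23% of all tested probe sets. Fam20c, the Golgi kinase that phosphorylates caseins, averaged 58.2 at puberty, 250 at pregnancy, 720 at lactation and 95.1 at involution. It rose at pregnancy (log2 2.07, adjusted p = 0.00224) and again at lactation (log2 1.56, adjusted p = 0.00273), and fell at involution (log2 -2.95, adjusted p = 9.49e-05). Galnt1, which starts O-linked glycosylation of the kind kappa-casein carries, rose at lactation (log2 1.81, adjusted p = 0.000405). The phosphate cotransporter Slc34a2 averaged 7806 at lactation, against 54.0 at pregnancy. Atp2b2, the calcium pump of the apical membrane, averaged 343 at lactation and 7.90 at pregnancy, where it was at the floor.

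Among 24 listed regulators of casein genes, 21 were tested. At pregnancy 5 rose over puberty and 1 fell, at lactation over pregnancy 3 rose and 3 fell, and at involution 2 rose and 7 fell relative to lactation. Over all tested probe sets the shares were 6.2% and 5.22%, 21.6% and 19.7%, and 22.1% and 23%, so neither count at lactation was above the share of all probe sets. Elf5, the ETS factor of alveolar cells, had 40.7, 42.5 and 34.6 at puberty, 1093.8 and 1215.5 at pregnancy, 3561.3 and 2455.7 at lactation, and 434.2 and 631.9 at involution. It rose at pregnancy (log2 4.88, SE 0.211, adjusted p = 1.76e-05) and at lactation (log2 1.36, adjusted p = 0.00211). Its involution arrays lay below its pregnancy arrays, as those of Csn2 and Csn1s2a did (log2 -1.14, adjusted p = 0.0246). Stat5a did not pass the F test (adjusted p = 0.116), with means of 661, 826, 814 and 610. Stat5b fell at involution below lactation (log2 -1.87, adjusted p = 0.00725). Id2, an inhibitor of basic helix-loop-helix factors, rose at pregnancy (log2 1.54, adjusted p = 0.00140) and fell at lactation below pregnancy (log2 -0.81, adjusted p = 0.00966).

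The markers of other cell types moved with the stages too. Of the 7 luminal markers, 4 rose at pregnancy over puberty, 4 fell at lactation below pregnancy, and 2 rose and 1 fell at involution. The shares of all tested probe sets were 6.2% higher at pregnancy, 19.7% lower at lactation, and 22.1% higher and 23% lower at involution, so the luminal counts at involution were near or below the share of all. At lactation, where casein signals were highest, the summed luminal signal of 1932.9 to 2274.2 was below that of pregnancy, but the markers were split. Krt8, Krt18, Krt19 and Cldn3 were lower at lactation. Epcam (213 against 180 at pregnancy), Cdh1 (182 against 138) and Cldn7 (303 against 254) had higher means, without passing the test. Of 6 adipocyte markers, 5 fell at lactation below pregnancy and 6 rose at involution, with sums of 9309.4 to 12257.4, 5778.4 to 8457.7, 1896.1 to 2320.2 and 10591.4 to 12519.8 in the order of the stages. Of 7 leukocyte markers, 7 fell at lactation and 7 rose at involution, with sums of 8799.6 to 9430.1, 5556.1 to 7472.9, 2337.0 to 3042.4 and 10160.4 to 10647.9. All 6 skeletal muscle markers fell at pregnancy, where 5.22% of all tested probe sets were lower than at puberty. The 6 summed to 185.0 to 1017.6 at pregnancy, against 7057.6 to 16933.5 at puberty. Of 4 basal and myoepithelial genes tested, 3 rose at pregnancy and 3 fell at lactation. The part of these shifts in the casein values was not tested.

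**Figure D4:**
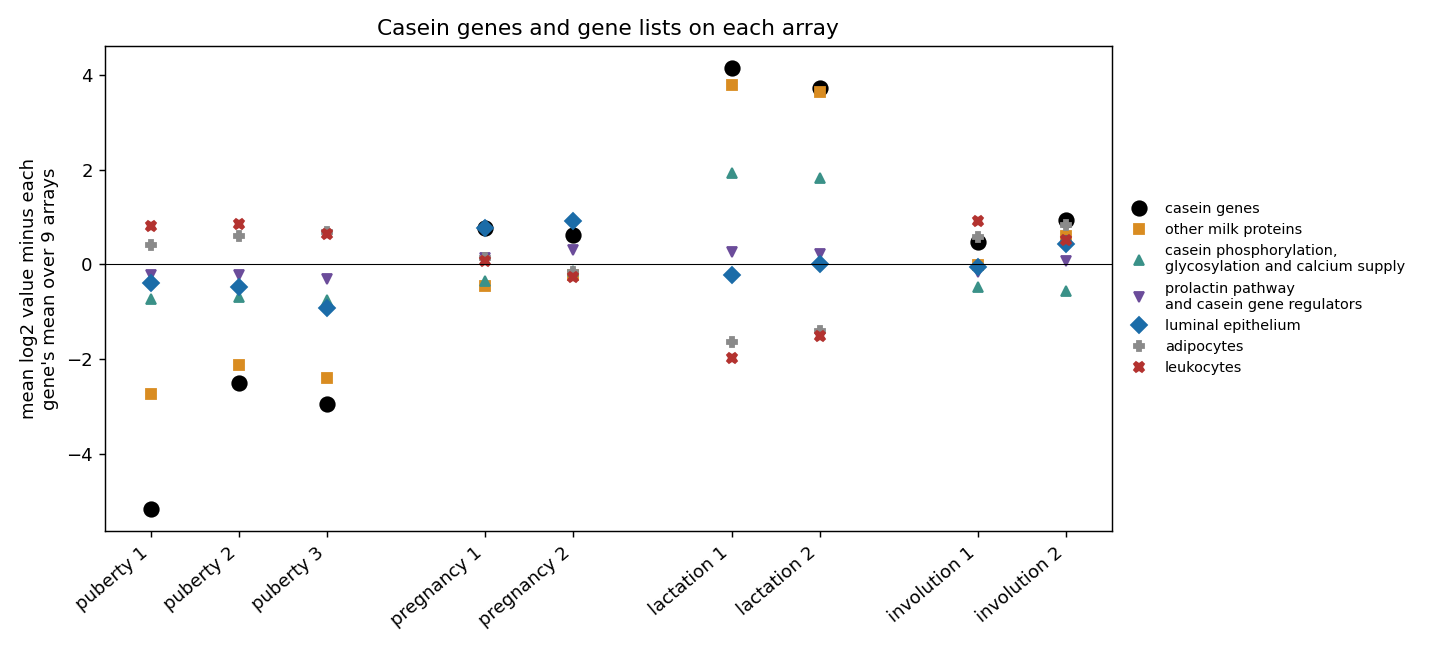
Mean log2 value of the casein genes and of 6 gene lists on each of the 9 arrays, minus the mean of each gene over the 9; each point is 1 list on 1 array. The casein genes stand at 4.15 and 3.71 on the lactation arrays and at -5.18 on puberty replicate 1, and the adipocyte and leukocyte lists are lowest at lactation.

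The 15 genes with a probe set on either side of the caseins were counted as neighbours, and 23 of the 30 were tested. At pregnancy 1 rose, at lactation over pregnancy 5 rose and 3 fell, and at involution 4 rose and 4 fell relative to lactation. All tested probe sets had 6.2% higher at pregnancy, 21.6% higher and 19.7% lower at lactation, and 22.1% higher and 23% lower at involution, so the counts of neighbours were near or below the shares of all. The nearest on each side, the sulfotransferase genes Sult1d1 and Sult1b1 and the glucuronosyltransferase gene Ugt2b5 before Csn1s1, and Smr3a and Smr2 after Csn3, averaged 26.7 or less in every stage. Prol1 averaged 160 ± 169 at lactation, against 13.4 ± 6.99 at pregnancy, where it was at the floor. Tmem165, a Golgi protein of manganese and calcium handling, is the 15th before the cluster with 118 annotated genes between. It averaged 4191 ± 870 at lactation, against 575 ± 12.8 at pregnancy (log2 2.85, adjusted p = 1.79e-05). Jchain, the joining chain of IgA and IgM, was the 6th after Csn3 and ran the other way, with 1291 ± 103 at involution, against 141 ± 51.5 at lactation (log2 3.25, adjusted p = 0.000241).

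The probe sets most like the mean casein profile over the 9 arrays were those of Gpr162 (r = 0.979), Crybg1 (0.979), Spata13 (0.974), Map7 (0.972) and Stx3 (0.971). Fbxo3 (0.969), Btn1a1 (0.968), Frrs1 (0.960), Ndrg1 (0.956) and Uhmk1 (0.953) followed. Csn3 was most like Plet1 (0.989), Elf5 (0.988) and Btn1a1 (0.987). Csn1s2b was most like Hagh (0.990), Cox6c (0.987) and Polr2l (0.987). As with Csn3 and Csn1s2a, none of its 3 was among the 3 most like another casein gene. Cox6c was dim, with a mean of 45.6 at lactation and of 17.3 or less, under the floor, in every other stage. Csn1s2a was most like Lars (0.986), Spata13 (0.981) and Fbxo3 (0.975). Csn1s1 and Csn2 shared their first 2, Pkp2 (0.957 and 0.963) and Wtap (0.956 and 0.963), followed by Rfc3 (0.954) for Csn1s1 and Fgf1 (0.959) for Csn2. These probe sets were dim, with puberty means of 23.8 to 26.8, close to the floor. Their lactation means were 50.7 to 75.9, against 27293 for Csn1s1 and 15023 for Csn2. With puberty replicate 1 left out, the r of the probe sets named for Csn1s1 and Csn2 was 0.913 to 0.936, and that of the others 0.952 to 0.990.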

How the data were processed

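The authors hybridized RNA of 9 glands to 9 MG-U74Av2 arrays and deposited linear signal intensity per probe set. By the submitters' processing notes it is from MAS5, version not given in the sources used here. The deposited values have a trimmed mean of 125.1 per array and no log; the filter and normalization described for GeneSpring are not applied in them. The number of arrays limits the precision. Of 12488 probe sets, 66 controls were left out, arrays were scaled to 1 median (factors 0.948 to 1.06), a floor of 20 was set, and values were put on a log2 scale. Printed signals are scaled, without the floor, and a fold against a stage at the floor is written "at least".

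The 9783 probe sets whose mean signal passed 20 in some stage were tested (2639 were left out) with limma 3.58.1 in R 4.3.3 (lmFit, eBayes with a trend). All 9 arrays shared 1 estimate of the spread, and Benjamini-Hochberg adjustment ran over the 9783, with a threshold of 0.05. Pair differences were tested with numpy 2.4.6 and pandas 2.3.3, and figures drawn with matplotlib 3.10.9. The scripts were tested on simulated data. Of the probe sets, 10833 carried 1 gene symbol, 396 several and 1193 none in the platform annotation, and 10817 of these were brought to the current symbol by Entrez ID in the RefSeq table of GRCm38.p6.

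The members and the gene lists were chosen with earlier results of these data known. Named were all casein genes, up to 4 genes of a list by the F test, the nearest 6 neighbours, the 10 probe sets most like the mean casein profile and the 3 most like each gene. Genes named beyond this rule (Stat5a, Stat5b, Wap, Ltf, Krt14, Krt8, Krt19 and Cdh1) were chosen after their values were seen. Alternatives were other scalings, floors, filters and variance models, a replicate block, and leaving out each array. Correlations without puberty replicate 1 were added after seeing the data.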

Additional observations from a re-analysis of the deposited data

How the results depend on the processing

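Arrays give no depth, and with 2 arrays in most stages 1 array can decide a call. The number of casein genes higher at pregnancy than at puberty was 4, fell to 2 by plain analysis of variance, and was 1 to 4 leaving out 1 array. Higher at lactation than at pregnancy were 2 (2 to 5), lower at involution than at lactation 3 (2 to 5), lower at involution than at pregnancy 0 (0 to 1), and 5 (4 to 5) passed the F test. The upper values of 5, 5 and 1 came without puberty replicate 1. Higher at involution than at puberty were 4, against 1 without the filter, 1 by plain analysis of variance and 1 to 4 leaving out 1 array. Pairs with unequal change were 4, with 0 to 7 leaving out 1 array and 3 to 6 under other floors and scalings. The change of Csn3 at involution against pregnancy reversed to 0.05 without pregnancy replicate 1 and 0.18 without involution replicate 1, and was -0.28 without involution replicate 2. Quantile normalization gave Csn1s1 a log2 change of 0 at lactation against pregnancy and Csn3 0.67 in place of 1.85. The causes were not tested.

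With the replicate number as a block, 2 casein genes were higher at involution than at puberty in place of 4, and the other casein counts were unchanged. The numbers name different females, and same-numbered arrays did not deviate together (r = -0.102 to 0.0490).

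Over all tested probe sets, calls ranged with 1 array left out, and over the other settings, as follows. At pregnancy against puberty 607 were higher (208 to 614, and 316 to 634) and 511 lower (80 to 490, and 227 to 586). At lactation against pregnancy 2110 were higher (1346 to 2258, and 1488 to 2221), and at involution against lactation 2250 were lower (1725 to 2319, and 1600 to 2435). At involution against puberty 429 were higher (151 to 489, and 193 to 452), and against pregnancy 394 (83 to 355, and 177 to 431).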

Other observations

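Wap, whose promoter like those of the caseins answers to prolactin, had a scaled signal of 705.2 and 1248.6 at pregnancy. These lay above 695.9 and 435.5 on puberty replicates 2 and 3, though 705.2 only just. Wap reached 31976.0 and 25788.1 at lactation and stood at 575.6 and 518.6 at involution. Probe sets at the floor on 1 puberty array with 40 or more on both others numbered 18 for replicate 1, 22 for replicate 2 and 19 for replicate 3, and 4 of the 18 were casein genes. With 100 or more on both others they numbered 4, 1 and 0. Lalba was dim at puberty, with 48.9 on replicate 1 and 20 and 21 on the others, which is at or next to the floor of 20. The lactoferrin gene Ltf had 2588.7 and 6221.1 at involution, against 4434.7 and 8937.9 at lactation, so its arrays of these stages overlapped.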
